A study of Mus musculus with 24 samples.

Results

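The Ly49 receptors are a family of lectin-like membrane proteins encoded by the Klra genes, which lie side by side on mouse chromosome 6. Every probe that is not a control and that the array files name as Klra1, Klra2, Klra3, Klra4, Klra5, Klra7, Klra8, Klra9, Klra10 or Klra17 was taken, each on its own. This gave 15 of 55681 probes, and they stand for 9 of the 10 genes, since 0 probes carried the name Klra3. All 15 were among the 42319 probes that passed the filter on dim signal.

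Expression was measured on 24 one-colour arrays of spleen RNA from B10.BR and BALB.K mice, with 3 arrays in each of 8 groups and RNA pooled from 3 mice on each array. B10.BR mice were unirradiated and resting (0 cGy) or had received 300, 500 or 900 cGy of X-ray total body irradiation 24 hours earlier. BALB.K mice were unirradiated and resting (0 cGy) or had received 300, 400 or 800 cGy 24 hours earlier. The series calls 900 cGy in B10.BR and 800 cGy in BALB.K myeloablative, and 300 cGy is the only irradiated dose given to both strains. The sex and age of the mice are not given in the sources used here.

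Most Ly49 receptors sit on natural killer (NK) cells, where the inhibitory ones bind MHC class I on other cells and hold killing back, while the activating ones signal through the adaptor DAP12, the product of Tyrobp. The number and kind of Ly49 genes differ between inbred strains: C57BL-type mice carry a long cluster with the activating genes Klra4 (Ly49D) and Klra8 (Ly49H), and the cluster known from BALB/c is shorter and lacks both. B10.BR and BALB.K are congenic strains that share the H2k form of the MHC on C57BL/10 and BALB backgrounds. A probe designed on one strain's gene can therefore bind less well to the other strain's allele, or bind a related gene, and a strain difference in its signal holds that as well as any difference in RNA. Likewise, a dose change given for a member in BALB.K is a change in the signal of its probe. Which Ly49 gene of BALB.K gives that signal was not tested.

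The probe sequences were compared with each other for the longest run of bases shared between Ly49 probes. Other parts of the Ly49 transcripts were not searched, so a short shared run does not show that a probe reads a single member. Probes of one gene are named here by the base of the transcript at which they start. In the files' mm9 coordinates, all lie on the minus strand of chromosome 6. The stretches below are read 5′ to 3′ from the array files, in full for Klra17, Klra9 and Klra10, whose probes share at most 10 bases in a row with any other Ly49 probe, and as 30-base stretches for the others. Klra17 encodes Ly49Q, an inhibitory receptor known from plasmacytoid dendritic cells and myeloid cells rather than NK cells, and its probes lie at chr6:129815690-129815749 (base 743) and chr6:129818820-129822239 (base 529). The second of these spans 3420 genomic bases and so crosses an intron. Klra9 (Ly49I, an inhibitory receptor; chr6:130139716-130139775) and Klra10 (Ly49J; chr6:130229304-130229363) have 1 probe each.
Klra17 base 743: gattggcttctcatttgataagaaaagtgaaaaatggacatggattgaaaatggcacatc
Klra17 base 529: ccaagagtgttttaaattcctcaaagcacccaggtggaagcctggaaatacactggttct
Klra9: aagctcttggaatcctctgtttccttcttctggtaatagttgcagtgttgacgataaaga
Klra10: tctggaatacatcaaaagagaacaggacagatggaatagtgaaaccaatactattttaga

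The next stretches are from probes whose strain or dose values differ between probes of one gene, or that share a long run with a Ly49 gene outside the listed members. The Klra5 (Ly49E) probes at bases 956 and 972 (chr6:129849145-129849204 and chr6:129849129-129849188) share 44 bases, and the capitals mark the 16 bases at either end that only one of them holds. The Klra7 (Ly49G) probes at bases 932 and 864 (chr6:130168899-130168958 and chr6:130168774-130168927) share a run of 29 bases, shown in capitals, and the first shares 37 bases with a Klra23 probe. Their bases are numbered on different transcripts, and the base 864 probe lies 3′ of the base 932 probe. Capitals in Klra4 (chr6:129994035-129994094) and Klra1 (Ly49A; chr6:130314070-130314129) lie within runs of 42 and 33 bases shared with probes for Klra15 and Klra16.
Klra5 base 956: AGCTGCAGGAGCATTGggactgttctctgg
Klra5 base 972: acagagttcatcttCCTTCCTCTTGGAGAC
Klra7 base 932: tTCCTCATTGACTCTCCAATGAGTGTAAAA
Klra7 base 864: TCCTCATTGACTCTCCAATGAGTGTAAAAg
Klra4: TATTTGTGGGAAGAGATTGGACAAATTCCC
Klra1: AGAGAGAGAAAATCTGGAAGATTTTGGGAA

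Klra8 has 3 probes, near the 3′ end at bases 1045 and 980 (chr6:130065245-130065304 and chr6:130065310-130065369) and near the 5′ end at base 31 (chr6:130078170-130079822). Klra7 has a further probe near its 5′ end at base 72 (chr6:130181634-130183268). The accessions listed for the base 1045 probe include Klra9 as well as Klra8. Capitals in the base 31 stretch mark the letters ATG, at which Ly49 reading frames are known to begin, and those in the base 72 stretch an 11-base run that the base 31 probe also holds.
Klra8 base 1045: cagaattgtgttctttctgatttcttaaac
Klra8 base 980: ttctatcctgttggagagaggacaaatcta
Klra8 base 31: catactctacgtattcccaagATGagtgag
Klra7 base 72: agaacatacttcatacatcATTCCCAAGAT

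Levels are log2 of the processed signal relative to the 75th percentile of the array, so that they can be compared between arrays for one probe but not between probes. The 75th percentile was 830.3 to 1235 intensity units, and 67.8% to 77.6% of probes were well above background. The spleen markers of B, T and erythroid cells were detected on every unirradiated array (7 of 7, 9 of 9 and 6 of 6 genes). After the highest dose all 7 B cell genes fell in both strains and 8 of 9 T cell genes fell. The arrays lay on 3 slides, with B10.BR at 0 and 300 cGy on slide 1, B10.BR at 900 and BALB.K at 0 cGy on slide 2 and BALB.K at 400 and 800 cGy on slide 3. The strains at 0 cGy lay on different slides, as did the highest dose and 0 cGy of each strain. B10.BR at 500 cGy and BALB.K at 300 cGy were split over slides, so that slide could be fitted as a block only through those groups. In bulk spleen RNA, fewer cells of a type and less RNA per cell cannot be told apart.

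**Figure D1:**
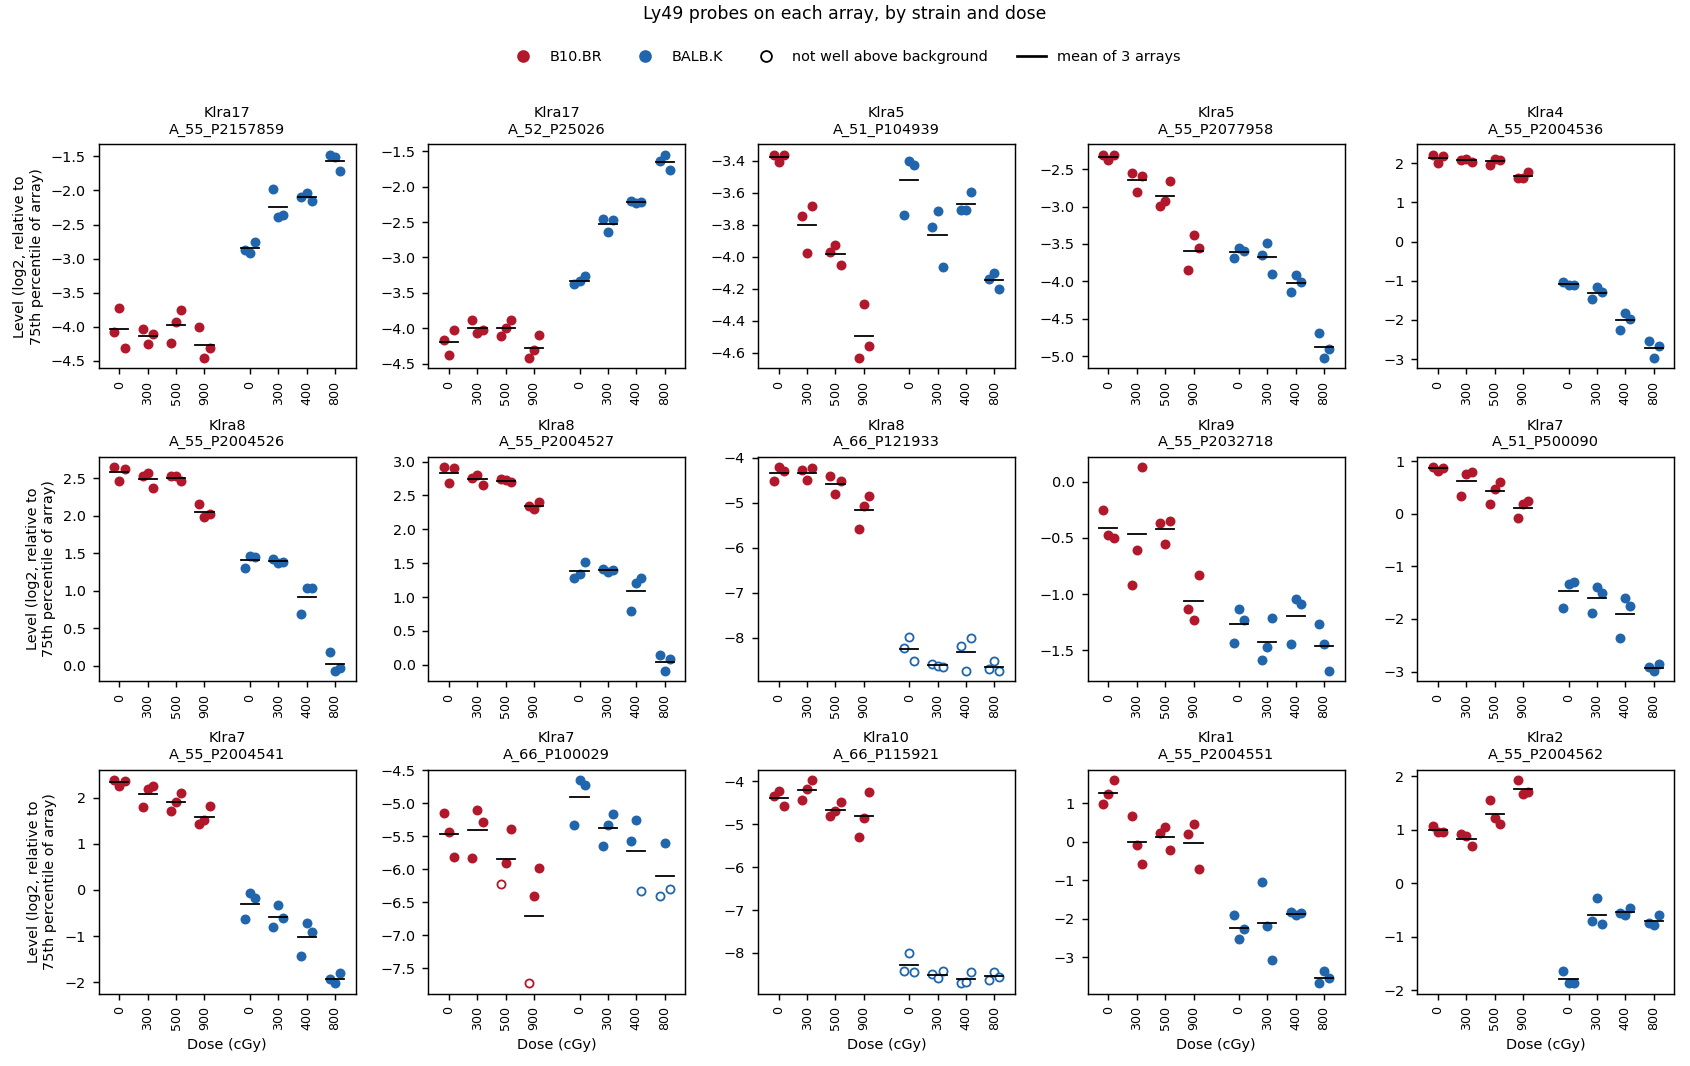
Level of each of the 15 Ly49 probes on each array (log2 relative to the array's 75th percentile, vertical axis, own scale per probe) against dose in cGy, with B10.BR in red on the left and BALB.K in blue on the right of each panel. Points are arrays, open points are not well above background and lines are means of 3 arrays. Klra10 and Klra8 base 31 (A_66_P121933) cleared background on each array of B10.BR and on none of BALB.K, and Klra17 climbed with dose in BALB.K while the B10.BR arrays stayed between -4.46 and -3.73.

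In unirradiated spleens the family was mostly higher in B10.BR than in BALB.K. Of the 15 probes, 13 passed the test (limma, Benjamini-Hochberg adjusted p below 0.05 over all probes), against 51.0% of all probes. They were 11 higher probes, for 8 genes, and 2 lower ones, both for Klra17, against 21.2% and 29.9% of all probes. The median difference of the members was 1.46 log2 units, beside -0.12 over all probes. The arrays of the strains did not overlap for 13 probes, as was so for 55.6% of all probes.

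The activating receptors stood far apart. Klra4, Ly49D, had 2.22, 2.01 and 2.18 log2 units in B10.BR and -1.04, -1.10 and -1.10 in BALB.K. All B10.BR arrays lay above all BALB.K arrays, by 3.22 ± 0.12 (SE of the limma fit; adjusted p = 3.24e-13), a 9.30-fold difference. The BALB.K level was still well above background, at 392 to 454 intensity units.

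Klra8, Ly49H, the receptor that recognises a protein of mouse cytomegalovirus, gave different sizes by probe. Near the 3′ end, base 980 had 2.92, 2.69 and 2.91 in B10.BR and 1.27, 1.34 and 1.52 in BALB.K, a difference of 1.46 ± 0.11 (limma, adjusted p = 6.76e-09), and base 1045 differed by 1.17 ± 0.10 (adjusted p = 3.75e-08). Near the 5′ end, base 31 had -4.52, -4.21 and -4.30 in B10.BR and -8.23, -8.00 and -8.52 in BALB.K. The BALB.K signal was not well above background on any array, so the strains are given as at least 3.80-fold apart. Such a bound sets the B10.BR mean against a BALB.K mean in which each array's value is raised to the lowest signal still well above background on it.

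Klra10, Ly49J, behaved like the 5′ Klra8 probe. It had -4.34, -4.24 and -4.58 in B10.BR and -8.42, -8.00 and -8.43 in BALB.K, where no array was well above background. The difference was at least 3.69-fold. Klra10 and Klra8 base 31 passed the filter on dim signal only through the B10.BR groups, so a test against BALB.K background adds no support and its p-value is left out. Over all doses Klra10 and Klra8 base 31 were well above background on 3 of 3 arrays in each B10.BR group and on 0 of 3 in each BALB.K group.

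The inhibitory members Klra1 and Klra9 were higher in B10.BR as well, while Klra17, also inhibitory, was lower. Klra1, Ly49A, had 0.98, 1.22 and 1.61 in B10.BR and -1.91, -2.53 and -2.25 in BALB.K, a difference of 3.50 ± 0.40 (limma, adjusted p = 1.20e-06). The groups did not overlap, although Klra1 had the largest standard error of the members. Klra9, Ly49I, differed by 0.86 ± 0.20 (adjusted p = 0.00184), with -0.25, -0.47 and -0.51 in B10.BR and -1.43, -1.14 and -1.23 in BALB.K; it no longer passed with slide as a block (0.97, adjusted p = 0.0877) or with scaling on the spike-in probes (0.18, adjusted p = 0.648).

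Klra7, Ly49G, differed between its probes. Base 932 had 2.39, 2.26 and 2.36 in B10.BR and -0.64, -0.08 and -0.18 in BALB.K, a difference of 2.64 ± 0.18 (limma, adjusted p = 2.40e-09), and base 864 differed by 2.33 ± 0.19 (adjusted p = 1.77e-08). Base 72, near the 5′ end, had -5.15, -5.43 and -5.82 in B10.BR and -5.33, -4.64 and -4.72 in BALB.K. Those arrays overlapped, and the difference of -0.57 ± 0.38 did not pass (95% interval -1.38 to 0.24; adjusted p = 0.224), but with spike-in scaling it was -1.25 and passed (adjusted p = 0.0251).

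Klra5, Ly49E, which is known as the member expressed early in NK cell development, gave another such split over an offset of 16 bases. Base 956 had -2.32, -2.37 and -2.31 in B10.BR and -3.69, -3.56 and -3.59 in BALB.K, a difference of 1.28 ± 0.13 (limma, adjusted p = 3.84e-07). Base 972 had -3.36, -3.41 and -3.36 in B10.BR and -3.74, -3.40 and -3.43 in BALB.K, and the difference of 0.14 ± 0.11 did not pass (95% interval -0.09 to 0.38; adjusted p = 0.300). With spike-in scaling that second value turned to -0.53 (adjusted p = 0.0280).

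Members known outside NK cells went both ways. Klra2, Ly49B, found on myeloid cells and encoded apart from the main cluster (chr6:131169286-131169345), had 1.06, 0.95 and 0.95 in B10.BR and -1.63, -1.86 and -1.87 in BALB.K. The difference was 2.78 ± 0.13 (limma, adjusted p = 1.15e-11), and no arrays overlapped. Klra17 was the only gene lower in B10.BR. Base 743 had -4.08, -3.73 and -4.32 in B10.BR and -2.87, -2.92 and -2.76 in BALB.K, a difference of -1.19 ± 0.16 (adjusted p = 6.56e-06), and base 529 differed by -0.86 ± 0.11 (adjusted p = 2.82e-06).

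**Figure D2:**
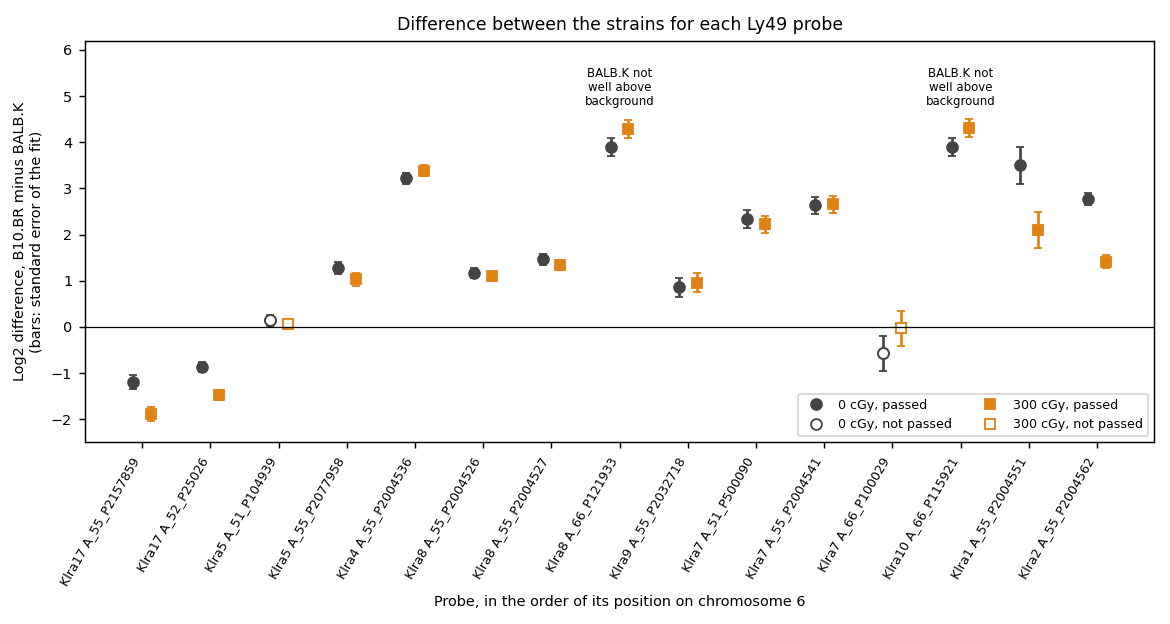
Log2 difference between strains, B10.BR minus BALB.K, for each Ly49 probe in chromosomal order, at 0 cGy (grey circles) and 300 cGy (orange squares), with bars for the standard error of the fit and open symbols where the test was not passed. At 0 cGy the values run from -1.19 for Klra17 to 3.50 for Klra1 among probes measured in both strains. The points of Klra10 and Klra8 base 31 are fitted against BALB.K arrays not well above background and are no exact differences.

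At 300 cGy, the dose both strains received, 13 probes again passed, 11 higher and 2 lower in B10.BR, against 32.1% of all probes (14.9% higher and 17.2% lower). The arrays did not overlap for 13, beside 40.4% of all probes. The median was 1.35 log2 units, beside -0.06 over all probes. Klra4 was at 3.38 ± 0.12 and Klra7 base 932 at 2.66 ± 0.18, beside 3.22 and 2.64 at 0 cGy, while Klra2 was at 1.42 ± 0.13, Klra1 at 2.10 ± 0.40 and Klra17 at -1.89 ± 0.16 (base 743) and -1.47 ± 0.11 (base 529), all past the limma threshold. With slide as a block, Klra1 was at 0.55 (adjusted p = 0.736) and Klra9 at 1.23 (adjusted p = 0.113), and neither passed. Klra10 was at least 6.23-fold and Klra8 base 31 at least 5.67-fold higher in B10.BR. Both are among the 11 higher probes and, as at 0 cGy, were kept only through B10.BR.

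At the lower doses fewer members passed in B10.BR than in BALB.K, a contrast that was not itself tested as a count. In B10.BR at 300 cGy 2 of 15 probes passed, against 38.0% of all probes (17.3% higher and 20.7% lower): Klra1 (-1.27 ± 0.40; limma, adjusted p = 0.0162) and Klra5 base 972 (-0.42 ± 0.11; adjusted p = 0.00580), both lower. Without array 3 of the 0 cGy group or array 3 of the 300 cGy group, 1 probe passed. Klra5 base 972 did not pass with spike-in scaling (-0.09, adjusted p = 0.81) or with the exocrine pancreas signal as a covariate (-0.35, adjusted p = 0.119). At 500 cGy 3 passed, against 45.5% of all probes (20.3% higher and 25.2% lower), namely Klra1 (-1.14 ± 0.40) and Klra5 base 972 (-0.61 ± 0.11) and base 956 (-0.53 ± 0.13). With spike-in scaling these 3 did not pass (-0.81, -0.28 and -0.21, adjusted p = 0.0562, 0.332 and 0.575), while Klra2 passed as higher (0.62, adjusted p = 0.0284). The median of the members was -0.09 at 300 and -0.24 at 500 cGy, beside -0.06 and -0.08 over all probes. Arrays did not overlap with those at 0 cGy for 6 member probes at 300 and 6 at 500 cGy, beside 48.9% and 56.3% of all probes.

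In BALB.K 4 of 15 probes passed at 300 cGy, against 42.9% of all probes (18.6% higher and 24.3% lower), with a median of -0.12 beside -0.13 over all probes. They were 3 higher ones, for Klra17 and Klra2, and Klra5 base 972, at -0.34 ± 0.11, whose call was lost in 11 of 20 alternatives (adjusted p up to 0.323). At 400 cGy 8 passed, against 48.1%, with 3 higher (24.1%) and 5 lower (24.0%), and a median of -0.28 beside 0.01. Arrays did not overlap for 5 probes at 300 and 8 at 400 cGy, beside 44.9% and 55.3%. Klra4 fell by 0.93 ± 0.12, Klra7 base 932 by 0.73 ± 0.18, Klra8 base 1045 by 0.49 ± 0.10 and base 980 by 0.28 ± 0.11, and Klra5 base 956 by 0.41 ± 0.13 (limma, adjusted p = 2.99e-06, 0.00310, 0.000511, 0.0425 and 0.0152). With spike-in scaling only Klra4 of these passed, and Klra8 base 980 lost its call in 10 of 20 alternatives.

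At the highest doses most members fell in the main fit, and in B10.BR their number depended on the processing. In B10.BR at 900 against 0 cGy 12 of 15 probes passed, against 50.9% of all probes. They were 11 lower, for 6 genes, against 26.6%, and 1 higher, against 24.3%, with a median of -0.65 beside 0.01 over all probes. With spike-in scaling only 3 were lower and 1 higher in B10.BR. There, 6 probes passed with slide as a block and 5 with the exocrine pancreas signal as a covariate. In BALB.K at 800 against 0 cGy 12 passed, against 55.6%, with 9 lower, for 5 genes, against 27.7%, and 3 higher, against 27.9%. The BALB.K median was -1.21, beside 0.08. Arrays did not overlap for 12 probes in B10.BR and 14 in BALB.K, beside 61.6% and 62.1% of all probes.

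Klra4 had 1.61, 1.63 and 1.77 in B10.BR at 900 cGy, against 2.22, 2.01 and 2.18 at 0 cGy. The arrays did not overlap, and the fall was 0.47 ± 0.12 on the log2 scale (limma, adjusted p = 0.00281). It did not pass with spike-in scaling (-0.08, adjusted p = 0.814), the exocrine pancreas signal as a covariate (-0.30, adjusted p = 0.20) or slide as a block (-0.52, adjusted p = 0.0705). In BALB.K the same probe had -2.53, -2.98 and -2.68 at 800 cGy, against -1.04, -1.10 and -1.10 at 0 cGy, and fell by 1.65 ± 0.12 (adjusted p = 1.25e-09). Over the 8 groups its means spanned 4.87 log2 units, every irradiated group of a strain lay at or below that strain's 0 cGy mean, and 2 of 7 neighbouring groups overlapped.

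Klra8 base 1045 had 2.15, 1.98 and 2.03 in B10.BR at 900 cGy, against 2.65, 2.46 and 2.63 at 0 cGy, a fall by 0.52 ± 0.10 (limma, adjusted p = 0.000216). In BALB.K it had 0.18, -0.07 and -0.03 at 800 cGy, against 1.31, 1.47 and 1.45 at 0 cGy, a fall by 1.38 ± 0.10 (adjusted p = 1.44e-09). Base 980 fell by 0.49 ± 0.11 in B10.BR and by 1.33 ± 0.11 in BALB.K. In B10.BR neither passed with spike-in scaling (-0.14 and -0.10), the pancreas covariate (-0.36 and -0.27) or the slide block (-0.46 each), whereas in BALB.K both passed with spike-in scaling. The 5′ probe, base 31, fell by 0.83 ± 0.19 in B10.BR (adjusted p = 0.00128), which spike-in scaling ended (-0.44, adjusted p = 0.205), and was not well above background in BALB.K at either dose.

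Klra7 base 932 had 1.43, 1.53 and 1.82 in B10.BR at 900 cGy, against 2.39, 2.26 and 2.36 at 0 cGy, a fall by 0.75 ± 0.18 (limma, adjusted p = 0.00222). In BALB.K it had -1.93, -2.03 and -1.81 at 800 cGy, against -0.64, -0.08 and -0.18 at 0 cGy, a fall by 1.63 ± 0.18 (adjusted p = 4.78e-07). Base 864 fell by 0.75 ± 0.19 in B10.BR and by 1.45 ± 0.19 in BALB.K. In B10.BR neither passed with spike-in scaling (-0.36 each) or the pancreas covariate (-0.42 for base 932 and -0.34 for base 864). The dim base 72 probe also passed as lower in both strains, but with 2 of 3 irradiated arrays well above background in B10.BR and 1 of 3 in BALB.K its change has no exact size, and the call was lost in 4 of 19 alternatives in each strain.

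Klra5 fell in both strains. Base 956 had -3.85, -3.38 and -3.55 in B10.BR at 900 cGy, against -2.32, -2.37 and -2.31 at 0 cGy, and -4.69, -5.03 and -4.90 in BALB.K at 800 cGy, against -3.69, -3.56 and -3.59 at 0 cGy. It fell by 1.26 ± 0.13 in each (limma, adjusted p = 1.97e-07 in B10.BR and 1.74e-07 in BALB.K), and the 95% interval of the difference between the changes was -0.39 to 0.39. Base 972 fell by 1.12 ± 0.11 in B10.BR and by 0.63 ± 0.11 in BALB.K, and the difference of -0.49 ± 0.16 missed the threshold (adjusted p = 0.0550). With spike-in scaling base 972 did not pass in BALB.K (-0.25, adjusted p = 0.327).

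Klra1 fell by 1.30 ± 0.40 in both strains (limma, adjusted p = 0.0101 in B10.BR and 0.00940 in BALB.K). It had 0.19, 0.45 and -0.71 in B10.BR at 900 cGy, against 0.98, 1.22 and 1.61 at 0 cGy, and -3.67, -3.36 and -3.54 in BALB.K at 800 cGy, against -1.91, -2.53 and -2.25 at 0 cGy. The 3 BALB.K arrays at 300 cGy ranged from -3.07 to -1.05, the widest of any member in any group, and the highest of them was the 1 array of that group on slide 2. With slide as a block, which ties BALB.K at 0 and 800 cGy together through that array, the BALB.K value turned to 0.28 (adjusted p = 0.723), and the B10.BR value was -0.79 (adjusted p = 0.323).

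Klra9 fell in B10.BR by 0.65 ± 0.20 (limma, adjusted p = 0.0108), where it had -1.13, -1.23 and -0.83 at 900 cGy, against -0.25, -0.47 and -0.51 at 0 cGy. That value was -0.11 with the pancreas covariate (adjusted p = 0.787), -0.27 with spike-in scaling (adjusted p = 0.554) and -0.76 with slide as a block (adjusted p = 0.135). In BALB.K it did not pass at any dose, with -0.20 ± 0.20 at 800 cGy (95% interval -0.62 to 0.23). Klra10 did not pass in B10.BR against 0 cGy either (-0.41 ± 0.19; adjusted p = 0.0868), and its lower value at 900 than at 300 cGy (-0.60 ± 0.19; adjusted p = 0.0368) lost its call in 11 of 19 alternatives (adjusted p up to 0.359). For Klra9 all 7 of the 7 neighbouring groups in the order of means overlapped.

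Klra2 was the member that rose in both strains at the highest dose. In B10.BR it did not pass in the main fit at 300 cGy (-0.16) or at 500 cGy (0.30). It had 1.93, 1.66 and 1.69 in B10.BR at 900 cGy, against 1.06, 0.95 and 0.95 at 0 cGy, a rise of 0.78 ± 0.13 (limma, adjusted p = 7.04e-05). In BALB.K it had -0.75, -0.79 and -0.60 at 800 cGy, against -1.63, -1.86 and -1.87 at 0 cGy, a rise of 1.08 ± 0.13 (adjusted p = 1.37e-06). The BALB.K rise was already 1.20 ± 0.13 at 300 and 1.25 ± 0.13 at 400 cGy, and 800 against 300 cGy did not pass (-0.12 ± 0.13), whereas in B10.BR 900 against 300 cGy was 0.94 ± 0.13 (adjusted p = 8.87e-05).

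Klra17 rose in BALB.K at each dose. Base 529 had -3.38, -3.33 and -3.27 at 0 cGy, -2.45, -2.65 and -2.47 at 300 cGy, -2.20, -2.24 and -2.22 at 400 cGy and -1.63, -1.54 and -1.77 at 800 cGy, and no arrays of 2 of these groups overlapped. The rise was 0.80 ± 0.11, 1.11 ± 0.11 and 1.68 ± 0.11 against 0 cGy (limma, adjusted p = 5.92e-06, 8.07e-08 and 1.94e-10), and base 743 rose by 0.61 ± 0.16, 0.75 ± 0.16 and 1.29 ± 0.16. In B10.BR neither probe passed at any dose. At 900 cGy they were at -0.09 ± 0.11 (95% interval -0.31 to 0.13) and -0.22 ± 0.16 (-0.55 to 0.11).

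**Figure D3:**
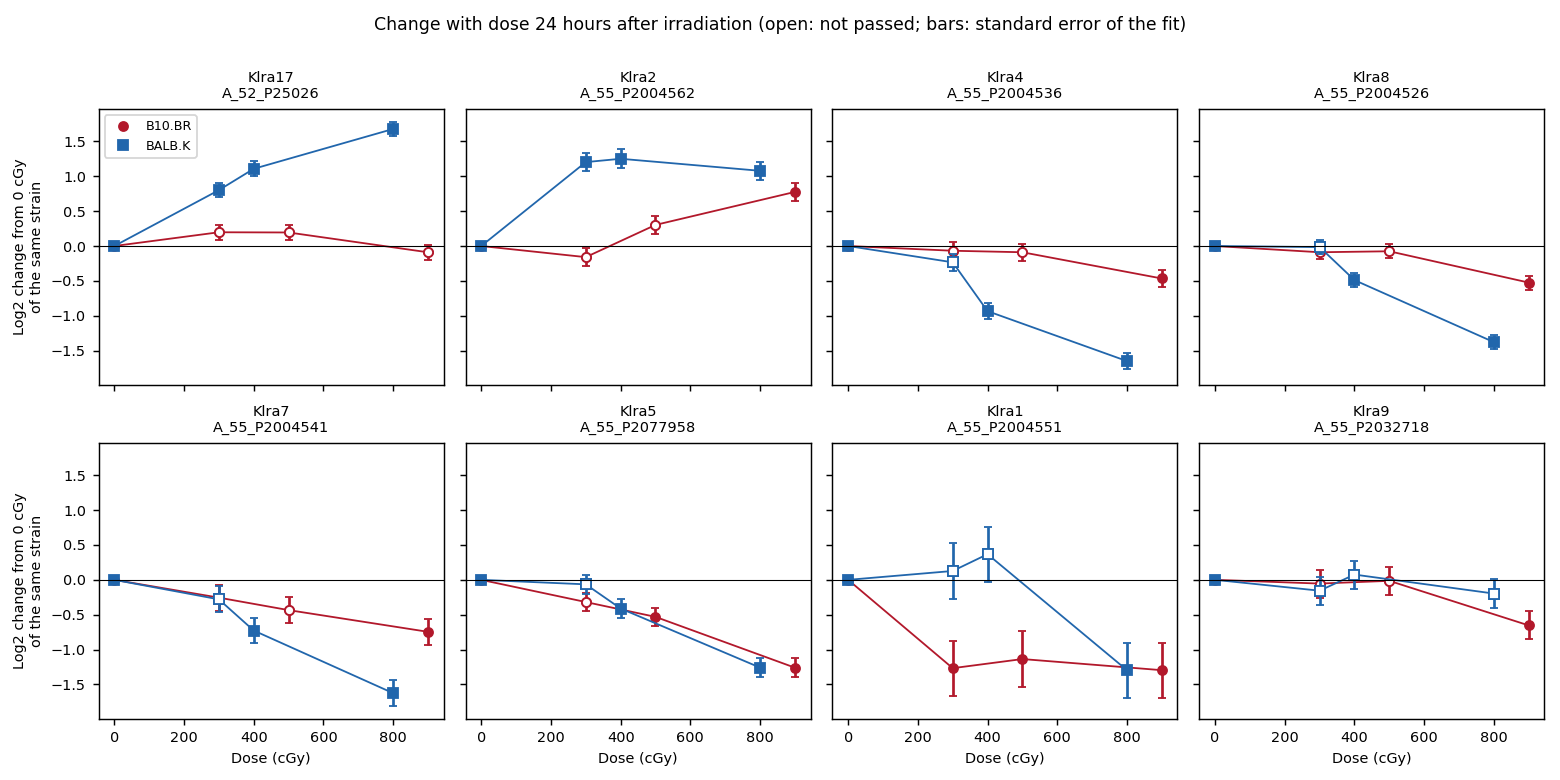
Log2 change from 0 cGy of the same strain (vertical axis) against dose in cGy for 8 Ly49 probes, B10.BR as red circles and BALB.K as blue squares, with bars for the standard error of the fit and open symbols where the test was not passed. At the highest dose of each strain, Klra17 reached 1.68 in BALB.K and -0.09 in B10.BR, and Klra2 was higher than at 0 cGy in both. Signal at the Klra4, Klra8 and Klra7 probes fell further in BALB.K at 800 cGy than in B10.BR at 900 cGy. Which Ly49 gene gives that signal in BALB.K was not tested.

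Between irradiated doses, 10 of 15 probes differed in B10.BR at 900 against 300 cGy, 9 lower and 1 higher, against 19.4% of all probes (9.68% lower and 9.73% higher). The arrays did not overlap for 10, beside 36.7%. The count fell to 5 without array 2 of the 300 cGy group and to 6 without array 1 or array 2 of the 900 cGy group. In BALB.K at 800 against 300 cGy 9 probes differed, 7 lower and 2 higher, against 34.4% (14.1% lower and 20.3% higher), and arrays did not overlap for 10, beside 51.9%. Within slide 3, which held 2 of the 300 cGy arrays and all at 800 cGy, Klra4 was at -1.50 ± 0.13, Klra8 base 1045 at -1.35 ± 0.11, Klra7 base 932 at -1.45 ± 0.20 and Klra17 base 529 at 0.91 ± 0.12 (limma, adjusted p = 4.15e-07, 3.79e-07, 7.43e-05 and 3.67e-05). Klra1 no longer passed there (-0.90 ± 0.36; adjusted p = 0.0618).

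The strains' changes were then set against each other, as the change in B10.BR minus that in BALB.K. At 300 cGy 2 of 15 probes passed, against 9.34% of all probes (5.49% higher and 3.85% lower): Klra2 (-1.36 ± 0.19; limma, adjusted p = 0.000226) and Klra17 base 529 (-0.60 ± 0.15; adjusted p = 0.0158). With spike-in scaling neither passed (-0.97, adjusted p = 0.0573, and -0.21, adjusted p = 0.674). At the highest doses, which differ between the strains, 6 passed, against 10.9% (5.83% higher and 5.03% lower). Klra17 was at -1.77 ± 0.15 (base 529) and -1.51 ± 0.22 (base 743), while Klra4 was at 1.18 ± 0.17, Klra8 at 0.85 ± 0.14 (base 1045) and 0.84 ± 0.16 (base 980) and Klra7 base 932 at 0.88 ± 0.26. That is, signal at the Klra4, Klra8 and Klra7 probes fell less in B10.BR, and which Ly49 gene gives it in BALB.K was not tested. With slide as a block Klra17 (-2.05 and -2.23) and Klra4 (1.38) passed, while the Klra8 values of 0.87 and 0.84 and the Klra7 value of 0.92 did not (adjusted p = 0.141, 0.211 and 0.423). With spike-in scaling Klra17 passed (-1.76 and -1.50), and Klra4 (1.19, adjusted p = 0.0866), Klra8 (0.86 and 0.85) and Klra7 (0.89) did not. The Klra7 value missed the threshold in 10 of the 12 fits that each left out 1 of the compared arrays.

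Signal of other tissue and of the Y chromosome moved with some groups. The 13 exocrine pancreas genes held 0.386% to 0.526% of the summed signal in B10.BR at 900 cGy, against 0.000644% to 0.00274% at 0 cGy, and 0.137% to 0.501% in BALB.K at 800 cGy, against 0.00357% to 0.0882% at 0 cGy. With their level as a covariate 5 of 15 probes passed in B10.BR at 900 cGy, where scaling on spike-in probes left 4 and slide as a block 6. Both Klra5 probes and Klra2 passed in each of these. The part of the pancreas signal in the Ly49 values was not tested further. Y-linked signal was present on 3 of 3 arrays of each B10.BR group and of BALB.K at 800 cGy, and on 1 of 3 in the other BALB.K groups. With it as a covariate 12 member probes passed in B10.BR at 900 cGy and 11 in BALB.K at 800 cGy.

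NK receptors outside the family fell in BALB.K more often than not. Of 15 NK receptor genes outside the family, 3 rose and 3 fell in B10.BR at 900 cGy (median 0.13), and 1 rose and 12 fell in BALB.K at 800 cGy (median -0.73). On each BALB.K array at 0 and 800 cGy 14 of the 15 were well above background, beside 15 of 15 in B10.BR at 0 and 900 cGy. For this list and the next ones, the shares of all probes called are 24.3% higher and 26.6% lower in B10.BR and 27.9% higher and 27.7% lower in BALB.K, and the B10.BR count here lies near them. List genes were read in the main fit only and were not recomputed under the alternatives. Spike-in scaling moved the median of all probes up by 0.39 in B10.BR at 900 cGy and by 0.38 in BALB.K at 800 cGy. Klrd1, the CD94 partner of the NKG2 receptors, fell by 1.46 ± 0.09 in B10.BR and by 1.63 ± 0.09 in BALB.K, and Klrg1 fell by 0.95 in B10.BR and 1.52 in BALB.K. Klrk1, which encodes NKG2D and was the 1 gene that rose in BALB.K, is named after its values were seen, and rose by 0.67 ± 0.13 in B10.BR and 0.98 ± 0.13 in BALB.K. Ncr1, which encodes the activating receptor NKp46, rose by 0.58 ± 0.17 in B10.BR and fell by 0.81 ± 0.17 in BALB.K. The difference between the strains' changes passed for 6 of the 15, against 10.9% of all probes, all higher in B10.BR, Ncr1 among them (1.39 ± 0.24; limma, adjusted p = 0.00122).

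Of 12 NK cell markers 5 were higher and 2 lower in B10.BR (median 0.14), and 3 were higher and 6 lower in BALB.K (median -0.44). This list shares Ncr1, Klrd1, Klrk1, Klrb1c and Cd244 with the NK receptors. It shares Eomes and Tbx21 with the NK transcription factors, so the counts of these lists are not separate. Their summed signal was 0.0679% to 0.0745% in B10.BR at 900 cGy, against 0.0489% to 0.0534% at 0 cGy, and 0.0417% to 0.0440% in BALB.K at 800 cGy, against 0.0417% to 0.0452% at 0 cGy. The summed signal of a list adds intensities, so that its brightest genes weigh most, and it is no measure of cell number. Of 10 NK transcription factors 3 rose and 6 fell in each strain. Eomes, which drives NK maturation, fell by 1.19 ± 0.13 in B10.BR and 2.14 ± 0.13 in BALB.K. The part of NK cell number in the Ly49 values was not tested.

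Among 12 signalling partners 4 rose and 8 fell in B10.BR and 4 rose and 5 fell in BALB.K. Tyrobp, the adaptor of Klra4 and Klra8, rose by 0.76 ± 0.14 in B10.BR and 1.21 ± 0.14 in BALB.K, and Hcst, the DAP10 adaptor, fell by 1.40 ± 0.11 and 0.78 ± 0.11. Of 5 MHC class I genes, which include the receptors' ligands, 4 rose in B10.BR and 5 in BALB.K, with medians of 0.47 and 0.38. H2-D1 rose by 0.96 ± 0.16 in B10.BR and 1.51 ± 0.16 in BALB.K.

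Markers of the cells known to carry Klra17 and Klra2 were read beside them. Of 10 plasmacytoid dendritic cell markers 2 rose and 6 fell in B10.BR at 900 cGy, and 1 rose and 6 fell in BALB.K at 800 cGy. Siglech, a lectin that defines these cells, fell by 0.27 ± 0.11 in B10.BR and by 0.40 ± 0.11 in BALB.K, where Klra17 rose. These falls are about as large as the shift of all probes with spike-in scaling (0.39 and 0.38), and whether they hold under it was not tested. Their summed signal was 0.116% to 0.125% in B10.BR at 900 cGy, against 0.108% to 0.120% at 0 cGy, and 0.0999% to 0.107% in BALB.K at 800 cGy, against 0.0654% to 0.0672% at 0 cGy. Bst2, which interferon also induces in other cells, rose by 1.70 ± 0.16 in B10.BR and 3.00 ± 0.16 in BALB.K. Of 9 macrophage and monocyte markers 7 rose and 1 fell in B10.BR, and 6 rose and 1 fell in BALB.K. Their summed signal was 0.107% to 0.119% in B10.BR at 900 cGy, against 0.0381% to 0.0462% at 0 cGy, and 0.118% to 0.121% in BALB.K at 800 cGy, against 0.0549% to 0.0608% at 0 cGy. The part of these cells in the Klra17 and Klra2 values was not tested.

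**Figure D4:**
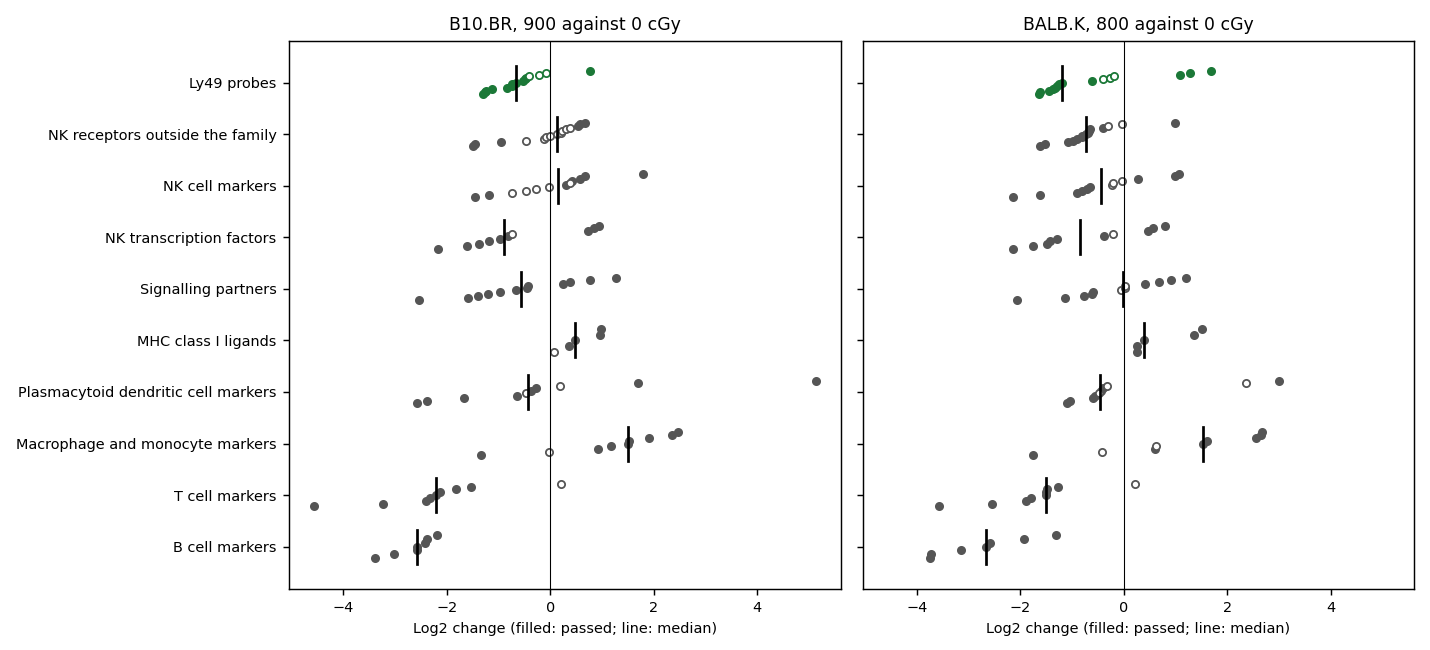
Log2 change at the highest dose against 0 cGy (horizontal axis) for the Ly49 probes, in green, and the genes of 9 lists, in grey, with B10.BR at 900 cGy on the left and BALB.K at 800 cGy on the right. Filled points passed the test, and vertical lines are medians. The Ly49 median was -0.65 in B10.BR and -1.21 in BALB.K, and that of the NK receptors outside the family 0.13 and -0.73.

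The array carries 15 further probes whose names begin with Klra, mostly genes known from the clusters of other strains, and 14 of them passed the filter. Several share long runs with member probes: 42 bases for Klra15 with Klra4, 37 for Klra23 with Klra7 and 33 for Klra16 with Klra1. Their counts are therefore not separate from those of the members, and how far they read the members' RNA was not tested. At 0 cGy 13 of these 14 were higher in B10.BR and 0 lower, with a median of 2.30, against 21.2% and 29.9% of all probes. Of the 14, 9 fell in B10.BR at 900 cGy and 11 in BALB.K at 800 cGy, with medians of -0.50 and -1.50, and 0 rose, against 26.6% and 27.7% of all probes lower. The difference between the changes passed for 6, all higher in B10.BR, against 5.83% of all probes.

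Genes outside the listed members whose levels followed a member most closely were found by Pearson's r over the 24 arrays after each strain's mean was removed. The arrays share the dose steps, so that r describes a shared course with dose. For Klra4 the closest was Klra15 (r = 0.98), with which its probe shares 42 bases, and for Klra7 base 932 it was Klra23 (r = 0.99). Klra8 base 980 was closest to Klra16 (r = 0.95), Klra2 to Fyb (r = 0.95), Klra5 base 956 to Kynu (r = 0.96), Klra1 to Mrgprg (r = 0.94), Klra17 base 743 to Itgax (r = 0.86) and Klra9 to Apobec3 (r = 0.79).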

How the data were processed

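Total spleen RNA was labelled with Cy3 and hybridised to 1-colour Agilent arrays. The deposited scanner files hold processed signal intensities, per the file headers background-subtracted by the authors with Agilent Feature Extraction 10.5.1.1. The deposited log2 values of the same arrays are centred on each probe, from the values themselves, with the authors' scaling not given in the sources used here, and served as an alternative only. Here each array's log2 intensity was set relative to its 75th percentile, spots of a probe were averaged, and probes well above background on every array of at least 1 group were kept. One limma 3.58.1 model (R 4.3.3, with the package data.table at version 1.17.8) was fitted over 8 groups, with Benjamini-Hochberg adjustment over all kept probes and a threshold of 0.05. It was checked on simulated data. Members and gene lists were chosen with earlier results of these data known. All members are accounted for, and list genes were named where their change was among the 3 largest of their list or where they mark the cell type.

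The 3 arrays of a group are separate pools of mice. The p-values rest on the spread between pools within groups, estimated for each probe over all 8 groups and drawn by limma toward that of other probes. Slide differences between groups that lie on different slides are not in this spread. The small number of pools limits the precision. Deviations of samples with the same replicate number were correlated, and in 9 of 10 comparisons not all 3 pairs were over 0.1 (correlations -0.31 to 0.32 over all). Only between the strains at 300 cGy were all 3 over it. Missing that cut-off does not show that samples did not deviate together. Between the strains at 0 cGy the correlations were 0.14, 0.18 and 0.08. Alternatives were other scalings, background correction, filters, blocks, covariates, the arrays fitted and leaving out each array. The gene closest to Klra10 in its course over the arrays is not reported here.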

Additional observations from a re-analysis of the deposited data

Results flagged for a closer look

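For 8 values the change with dose differed between the strains by a test of that difference (limma, over all probes), given as the change in B10.BR minus that in BALB.K. At 300 cGy these were Klra2 at -1.36 (adjusted p = 0.000226) and Klra17 base 529 at -0.60 (adjusted p = 0.0158). At 900 cGy in B10.BR and 800 cGy in BALB.K, Klra17 was at -1.51 (base 743) and -1.77 (base 529), Klra4 at 1.18, Klra8 at 0.85 (base 1045) and 0.84 (base 980) and Klra7 base 932 at 0.88. The highest doses differ between the strains, so that dose size cannot be told apart from strain there. Which Ly49 gene gives the BALB.K signal at the Klra4, Klra8 and Klra7 probes was not tested. With slide as a block the Klra17 values were -2.23 and -2.05 and the Klra4 value 1.38, all passing, and Klra8 and Klra7 did not pass. With spike-in scaling Klra17 at the highest doses passed, and the other 6 values did not.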

How the results depend on the processing

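Of 3684 values recomputed under the alternatives, 3448 kept their direction and their side of the threshold, 152 lost the call, 82 gained one and 2 reversed. The reversed values were Klra5 base 972 between strains at 0 cGy with spike-in scaling (-0.53) and Klra1 in BALB.K at 800 against 0 cGy with slide as a block (0.28), the cause of either not being tested. Of 164 counts of member probes called, other than those leaving out an array, 142 stayed within 1.5 times. With spike-in scaling the counts were 1 (B10.BR, 300 cGy), 1 (B10.BR, 500 cGy), 4 (B10.BR, 900 cGy), 2 (B10.BR, 900 against 300 cGy), 2 (BALB.K, 300 cGy), 4 (BALB.K, 400 cGy), 0 (strain difference in change, 300 cGy) and 2 (the same, highest doses). With slide as a block they were 6 (B10.BR, 500 cGy), 6 (900 cGy), 2 (900 against 300 cGy), 4 (strain difference in change, 300 cGy) and 3 (the same, highest doses). Fitting only the arrays compared gave 5 (B10.BR, 500 cGy), 3 (900 against 300 cGy) and 1 (strain difference in change, 300 cGy). The exocrine covariate gave 1 (B10.BR, 300 cGy) and 5 (900 cGy). In B10.BR at 500 cGy 5 probes passed with normexp, the Y-linked covariate, the deposited matrix and the replicate block each. Under the replicate block no call was lost and 6 were gained, all for Klra7 (for base 864 in B10.BR at 500 cGy, -0.44, adjusted p = 0.0117). Leaving out each array gave counts of 1 to 2 for B10.BR 300 cGy, 2 to 4 for B10.BR 500 cGy, 11 to 12 for B10.BR 900 cGy and 5 to 11 for B10.BR 900 against 300 cGy. It gave 3 to 4 for BALB.K 300 cGy, 6 to 9 for BALB.K 400 cGy, 11 to 13 for BALB.K 800 cGy and 8 to 10 for BALB.K 800 against 300 cGy. Between strains it gave 13 at 0 and at 300 cGy, and for the strain difference in change 2 to 3 with 300 cGy and 5 to 7 with the highest doses. Spike-in scaling moved the median of all probes by -0.68 to 0.43 in 8 comparisons, median scaling by -0.26 to 0.33 in 5, quantile normalization by -0.13 to 0.11 in 3 and normexp by -0.19 to -0.14 in 2. With spike-in scaling the strain difference at 0 cGy was called higher for 10 members and lower for 4, and the change in B10.BR at 900 cGy lower for 3 and higher for 1. It called 1 higher and 0 lower for B10.BR 500 cGy, 1 and 1 for B10.BR 900 against 300 cGy, 2 and 0 for BALB.K 300 cGy, 3 and 1 for BALB.K 400 cGy, and 0 and 2 for the strain difference in change at the highest doses. Klra10 and Klra8 base 31 in BALB.K are limited by signal at background.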
